A study of Mus musculus with 7 samples.

Results

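The comparison described here splits 7 mouse left ventricles by a code written in their sample descriptions and column names. The code reads G2 in 3 libraries and G3 in 4, so all 7 libraries of the series enter. The labels do not state what it means. It is a different item from the genotype label, which also uses the name G3: here "coded G2" and "coded G3" always refer to the code, and "genotype label" to the other. The coded G2 group holds the libraries numbered 40 and 50, with genotype label G3, and 55, with genotype label G3 PGC1aOE. The coded G3 group holds 67 and 83, with genotype label G3, and 81 and 82, with genotype label G3 PGC1aOE. Every animal was C57BL/6J and 12 months old. The design text calls G3 mice telomerase-deficient and the others G3 mice with PGC1alpha overexpressed. All groups therefore share telomerase deficiency, and no library with telomerase was analysed here. The labels give neither the promoter of the overexpression nor the line, nor do they say whether libraries came from separate animals. The libraries are called by their code numbers below. All numbers of coded G2 (40 to 55) lie under all those of coded G3 (67 to 83), so the code and whatever runs with the number cannot be told apart.

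Telomerase adds DNA repeats to chromosome ends. In mice without it, telomeres shorten with each generation bred, and late generations show failure of proliferating tissues and impaired mitochondria in the heart. PGC1alpha is a transcriptional coactivator, a protein that binds to transcription factors and raises the output of genes for mitochondrial respiration and fatty acid oxidation. Blood cells, endothelium, immune cells and cardiomyocytes all add RNA to a whole ventricle, so a library reads the mixture.

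The label checks came first. Tert, the reverse transcriptase subunit of telomerase, had 1 count in library 81 and 0 in the other libraries, and Terc, its RNA template, was not analysed here. Ppargc1a, which encodes PGC1alpha, stood at 94.7, 119 and 103 CPM in libraries 40, 50 and 55, and at 56.7, 43.8, 58.1 and 86.8 CPM in libraries 67, 81, 82 and 83. CPM is the depth-scaled count, after scaling of the library totals. Every coded G3 library was below every coded G2 library, with a log2 difference of −0.75 ± 0.23 (SE) and an adjusted p of 0.129, which does not pass 0.05. Libraries 81 and 82, both labelled as overexpressing PGC1alpha, held among the lowest values, and library 55, also so labelled, lay between 40 and 50. They are therefore named by their label only. The 11 ventricular cardiomyocyte markers were present at summed levels of 53310 to 63166 CPM in coded G2 and 47051 to 72156 CPM in coded G3, and no lung or thymus marker passed the filter on low counts. Atrial cardiomyocyte markers varied widely within both groups, at summed levels of 230 to 4010 CPM in coded G2 and 599 to 2994 CPM in coded G3. Their mean log2 CPM was 4.70, 5.08 and 5.69 in libraries 40, 67 and 82 and 1.78 to 3.22 in the others. The part of atrial tissue in other results was not tested.

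Total counts were 10106705 to 11576569 in coded G2 and 12016705 to 16056740 in coded G3. The ranges did not overlap, and the exact permutation test (2-sided, 35 splits) gave p = 0.0571, which is the smallest it can give, so this design cannot reach 0.05. Genes with a count numbered 15237 to 16112 and 15471 to 15862. The share of mitochondrially encoded counts was 24.8% to 31.4% and 26.0% to 42.4%, with an exact permutation p of 0.229. The Y-linked genes Ddx3y, Eif2s3y and Uty had 790, 606 and 174 counts in library 40 and 0 to 5 in the others, whereas Kdm5d, also Y-linked, had 72 to 232 counts over all 7 libraries. By Ddx3y, Eif2s3y and Uty only library 40, which is coded G2, looked male, so by these genes sex was not balanced between the codes. Myh7, the slow myosin heavy chain, varied widely within both groups, at 6074, 294 and 8063 CPM in 40, 50 and 55 and 4901, 394, 265 and 1208 CPM in 67, 81, 82 and 83.

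Of 12995 genes tested with the genotype label as a covariate, 41 passed an adjusted p of 0.05 for the code, which is 0.316% of those tested. In coded G3, 11 rose (0.0846%) and 30 fell (0.231%). At an unadjusted p under 0.05, 1289 genes were higher (9.92%) and 1298 lower (9.99%), and the 7 libraries did not overlap by code in 1387 higher genes (10.7%) and 1489 lower genes (11.5%). Over all genes 49.1% were higher, with a median log2 difference of −0.01. The 41 called genes lay close to the threshold: 23 shared an adjusted p of 0.0499, and 24 further genes lay between 0.05 and 0.055. For the genotype label, edgeR's quasi-likelihood test called 0 genes (0%) in the same fit, with 656 at an unadjusted p under 0.05 and a smallest adjusted p of 0.853. The code difference itself differed between genotype labels in 0 genes (0%), with 491 at an unadjusted p under 0.05.

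How many genes were called depended on which libraries entered the fit. Leaving out library 55, the only coded G2 library labelled G3 PGC1aOE, left 0 calls, with 929 genes at an unadjusted p under 0.05. With the genotype label still a covariate, the code difference then came from 40 and 50 against 67 and 83. Values given below without library 55 are therefore no separate check from those within genotype label G3. Leaving out library 82 also left 0, with 2449. Without 40, the library with these Y-linked counts, there were 10 calls. With the summed level of Ddx3y, Eif2s3y, Uty and Kdm5d as a covariate there were 5, among them Eno1b, Tent5c, Alas2 and Slc4a1. Outside library 40 that sum was mostly Kdm5d, which stood at 9.61 to 21.2 CPM in coded G2 and 5.42 to 9.15 CPM in coded G3. The covariate thus partly follows the code, so this fit does not isolate the Y-linked counts of library 40. Without 81 there were 7 and without 83 there were 26. Without 50 the count was 188 and without 67 it was 111. Scaling by RLE, a median of ratios between libraries, gave 18 calls, of which 3 or 16.7% were higher, against 26.8% with TMM scaling. Within the libraries of genotype label G3 (40 and 50 against 67 and 83, the contrast also left without 55) no gene was called. There 1242 had an unadjusted p under 0.05. The 41 genes kept their sign in every one of the 22 alternative fits. None of the 41 overlapped between the code groups, and the fits reuse the same libraries, so the kept signs add no support.

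**Figure D1:**
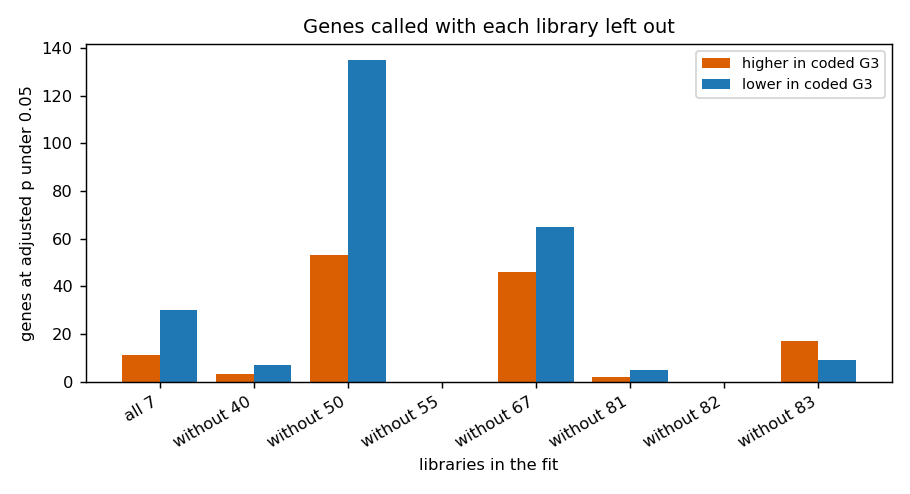
Number of genes called for the code (vertical axis, adjusted p under 0.05) with all 7 libraries and with each library left out in turn, higher and lower in coded G3 as separate bars. The count runs from 0 without 55 or 82 to 188 without 50.

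Genes named below were taken by a rule of size and non-overlap (given with the methods), and 21 of them are plotted by library. Of the 10 higher genes that met it, Nos3, Klf2, Sox7, Ramp2, Dll1 and Rbp7 are known from endothelium and H2-DMa and H2-Q4 from antigen presentation. The 12 lower ones include the red cell gene Alas2 and the heart muscle gene Xirp2.

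**Figure D2:**
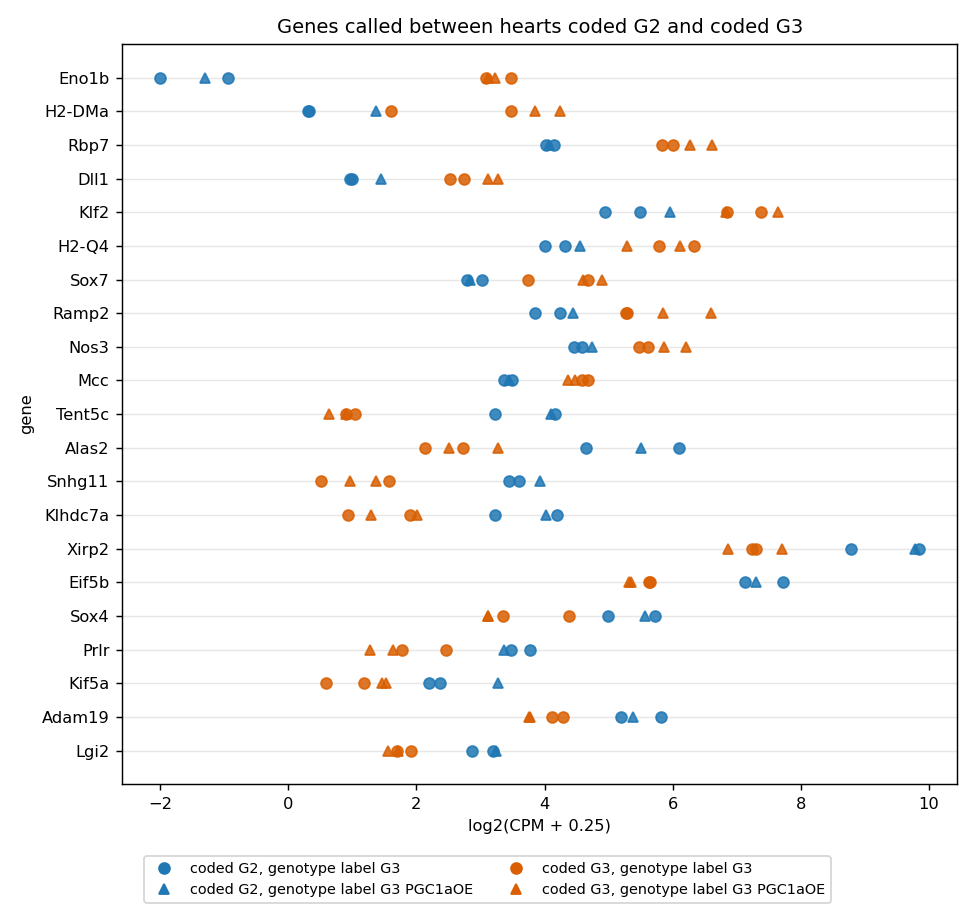
Level of the 10 higher and 11 of the 12 lower named genes in each library, as log2(CPM + 0.25), with the code as colour and the genotype label as symbol. Coded G2 and coded G3 points do not overlap in any row, which the rule required; Eno1b shows the widest gap.

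Several endothelial genes were higher in the hearts coded G3. Endothelium lines the vessels and the ventricle's cavity, and its nitric oxide, made by the enzyme that Nos3 encodes, relaxes the vessel wall. Nos3 stood at 23.8, 21.8 and 26.5 CPM in 40, 50 and 55 and at 44.4, 73.5, 58.1 and 48.6 CPM in 67, 81, 82 and 83. It rose by 1.14 ± 0.19 on the log2 scale (adjusted p = 0.0499). Its groups did not overlap, which the rule for named genes required. Klf2, a transcription factor that flowing blood induces in endothelium, stood at 30.5, 44.5 and 61.7 CPM against 115, 199.6, 114 and 166 CPM and rose by 1.68 ± 0.28 (adjusted p = 0.0499). Ramp2, the partner that turns the calcitonin receptor-like receptor into an adrenomedullin receptor, stood at 18.6, 14.2 and 21.5 CPM against 38.2, 96.3, 57.2 and 38.6 CPM. Library 81 was by far the highest for Ramp2, which rose by 1.47 ± 0.25.

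The endothelial transcription factor Sox7 stood at 6.66, 7.91 and 6.902 CPM against 13.1, 29.4, 24.1 and 25.2 CPM and rose by 1.61 ± 0.28. Dll1, a ligand of Notch receptors that vessels use, stood at 1.73, 1.71 and 2.48 CPM against 6.42, 9.44, 8.39 and 5.495 CPM and rose by 1.81 ± 0.25. Rbp7, a retinol-binding protein of capillary endothelium, had the tightest coded G2 values of this set, 16.1, 17.5 and 16.5 CPM, against 56.6, 97.4, 76.7 and 63.8 CPM, and rose by 2.06 ± 0.22 (adjusted p = 0.00726). Rbp7 passed in 18 of the 22 alternative fits and Dll1 in 16, while Nos3, Klf2, Sox7 and Ramp2 passed in 7 or 8.

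The broader endothelial markers leaned the same way without any being called. Of 16 tested, 15 were higher, 7 of them at an unadjusted p under 0.05 (none lower), and 8 did not overlap, with a median log2 difference of 0.57 against −0.01 over all genes. Egfl7, a secreted endothelial protein, stood at 46.5, 45.99 and 57.8 CPM against 81.2, 177, 100.3 and 91.9 CPM, Sox17, an arterial transcription factor, at 14.3, 8.89 and 13.3 CPM against 32.5, 53.5, 21.2 and 26.4 CPM, and Rgcc, a cell cycle regulator of capillaries, at 31.8, 16.5 and 24.9 CPM against 59.9, 89.5, 44.5 and 55.2 CPM. Their adjusted p values were 0.0825, 0.0897 and 0.0825. Summed endothelial markers were 1229 to 1481 CPM in coded G2 and 1543 to 3023 CPM in coded G3. In bulk tissue, more cells of a type and more RNA per cell cannot be told apart. The list's median was 0.30 without library 55. A separate list of endocardial and lymphatic markers showed no common direction. Of 10 tested, 5 were higher and 5 lower, 1 and 2 of them at an unadjusted p under 0.05, with a median of −0.16.

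Smooth muscle and pericyte markers, the contractile cells around vessels, had a median of 0.57, with 12 of 14 higher, 6 at an unadjusted p under 0.05 and 4 without overlap. Tagln, an actin-binding protein of smooth muscle, stood at 22.7, 18.1 and 18.7 CPM against 75.3, 186, 109 and 38.2 CPM with an adjusted p of 0.0725. Smooth muscle myosin Myh11 stood at 24.8, 25.4 and 28.1 CPM against 62.2, 98.4, 43.3 and 30.5 CPM, and smooth muscle actin Acta2 at 40.3, 74.7 and 22.9 CPM against 119, 274, 201 and 76.9 CPM. For all 3 the top library was 81, and 83 was the lowest of coded G3. The summed levels of this list overlapped, at 694 to 1218 CPM and 1074 to 1459 CPM.

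Genes of antigen presentation were higher in coded G3 on both the class II and the class I side. MHC class II molecules show peptides from outside the cell to helper T cells, and H2-DMa and H2-DMb1 encode the chaperone that loads them. H2-DMa stood at 1.004, 0.988 and 2.33 CPM in 40, 50 and 55 and at 2.81, 18.7, 14.2 and 10.8 CPM in 67, 81, 82 and 83, and rose by 2.79 ± 0.46 (adjusted p = 0.0499). Library 67 was close to the coded G2 libraries and the other coded G3 libraries were far above. Cd74, the invariant chain that guides class II molecules through the cell, stood at 13.1, 12.5 and 59.2 CPM against 56.98, 390.1, 300.1 and 252 CPM, so library 55 was just above library 67, and its log2 difference of 3.15 ± 0.53 had an adjusted p of 0.0553. H2-Ab1, a class II beta chain, stood at 4.11, 7.82 and 22.9 CPM against 23.8, 152, 142 and 111 CPM (difference 3.15, adjusted p = 0.0712). H2-DMb1 differed by 1.81 ± 0.33 (adjusted p = 0.05203).

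Of 8 class II genes tested, 7 were higher, 6 at an unadjusted p under 0.05, and 3 did not overlap, with a median of 2.97. Dropping library 83 left a median of 2.22 and dropping 67 gave 3.26. The cells that carry class II in the heart are macrophages, dendritic cells and B cells. Macrophage and monocyte markers showed no common direction: 7 of 17 were higher, 0 at an unadjusted p under 0.05 against 1 lower, the median was −0.10, and their summed level was 503 to 919 CPM in coded G2 and 378 to 925 CPM in coded G3. Ccr2, the receptor of monocytes recruited from blood, stood at 1.28, 2.79 and 3.57 CPM against 2.81, 7.77, 7.65 and 2.79 CPM, highest in 81 and 82, with overlap. F13a1, a marker of tissue macrophages, was the 1 that was lower, at 116, 84.9 and 108 CPM against 77.2, 35.6, 51.5 and 18.7 CPM (adjusted p = 0.182).

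T, B and NK cell markers were scarce. Their summed level was 9.16 to 12.6 CPM in coded G2 and 10.5 to 19.7 CPM in coded G3, and most of it was Ptprc, the common leukocyte antigen, whose log2 difference was −0.00132. Of 13 markers, 6, among them Cd3d, Cd79a, Cd79b, Ms4a1 and Klrb1c, were too low to test. Of the 7 tested, 6 were higher, all 6 at an unadjusted p under 0.05, but markers near 0 in coded G2 passed the filter on low counts only through coded G3, so this count supports nothing. Nkg7, a granule protein of cytotoxic cells, had 0 counts in each coded G2 library and 0.295, 1.82, 1.104 and 1.51 CPM in coded G3. Cd4, the coreceptor of helper T cells, stood at 0.183, 0.449 and 0.233 CPM against 1.26, 1.16, 0.883 and 1.204 CPM (adjusted p = 0.103). The median over the tested markers was 2.60, also with Nkg7 set to a floor of 3 counts over the coded G2 group, but 0.94 within genotype label G3, and 1.57 and 0.60 on log2(FPKM + 0.1) and log2(FPKM + 1). The part of these cells in the class II values was not tested.

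On the class I side, H2-Q4, a nonclassical class I gene, stood at 19.6, 15.9 and 23.3 CPM against 80.2, 69.1, 38.9 and 54.95 CPM and rose by 1.63 ± 0.28 (adjusted p = 0.0499). H2-K1 and H2-D1, the classical class I chains, differed by 1.37 ± 0.41 (adjusted p = 0.129) and 1.31 ± 0.30 (adjusted p = 0.0824). The 19 tested genes with an H2 symbol include class II genes, among them those given above, and H2-Ke6, so they are not a class I count. All 19 were higher, 15 at an unadjusted p under 0.05. Of these, H2-DMb2 (0, 1 and 3 counts in coded G2) and H2-Ob (2 counts in each) passed the filter on low counts only through coded G3. They add no support to the count. Many H2 genes share long near-identical stretches, and how the authors assigned reads to them is not given in the sources used here, so their single values are uncertain.

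Most H2 genes sit together on chromosome 17 with genes of other function, and this block was looked at after the values were seen. From H2-K1 to H2-Q10 in the RefSeq gene order, 64 genes were tested, of which 54 were higher, 27 at an unadjusted p under 0.05 (42.2%) and 22 without overlap. Among all other genes 9.76% were higher at that level. With the H2 genes taken out, 40 of the remaining 50 were higher and 14 (28.0%) were so at an unadjusted p under 0.05. They included the immunoproteasome genes Psmb8 and Psmb9 and the peptide transporter Tap1, as well as genes with no part in antigen presentation, such as Lsm2, an RNA-splicing factor (0.93), Ddah2, an enzyme that clears an inhibitor of nitric oxide synthase (0.73), and the inducible heat shock gene Hspa1b (1.72). No gene of the block was lower at that level. Some of these genes are short or rich in GC, such as Lsm2 (789 bp) and Ddah2 (915 bp, 59.4% GC). Over all tested genes, 74.1% of the shortest of 4 bins by length and 70.9% of the highest of 4 bins by GC content were higher. The part of length and GC content in the block's values was not tested.

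Interferon-stimulated genes leaned higher as a list. Interferons act through STAT and IRF transcription factors, which bind a site called ISRE (searched here as GAAA, 2 bases of any kind and GAAA) or, for type II interferon, a site called GAS (core TTCNNNGAA). All 33 listed genes were tested: 31 were higher, 17 of them at an unadjusted p under 0.05 (none lower) and 12 without overlap, but none was called. The median was 0.91, and 1.26 within genotype label G3 against 0.54 within G3 PGC1aOE, a contrast whose difference was not tested. Ifi27, an interferon-induced membrane protein, stood at 23.3, 22.1 and 30.7 CPM against 41.3, 69.9, 63.3 and 64.2 CPM (difference 1.18 ± 0.21, adjusted p = 0.05203). Gbp3, a GTPase of antimicrobial defence, stood at 3.01, 3.68 and 5.04 CPM against 9.15, 18.2, 10.5 and 17.4 CPM (difference 1.78 ± 0.31, adjusted p = 0.05203). Psmb8, a catalytic subunit of the immunoproteasome that cuts peptides for class I, stood at 10.4, 9.07 and 9.69 CPM against 25.6, 56.95, 23.3 and 36.7 CPM (difference 1.82 ± 0.32, adjusted p = 0.05203), and its neighbour Psmb9 at 5.201, 4.402 and 6.902 CPM against 14.8, 28.98, 11.9 and 21.2 CPM (difference 1.76 ± 0.32).

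The promoters of Gbp3 and Psmb8 are shown because each holds one of these motifs near its start. They are RefSeq sequences of build GRCm38.p6, 5′ to 3′ on the gene's strand, with 250 bases before the start site, and with matches of the ISRE or GAS core on either strand in capitals (overlapping matches run together).
Gbp3, chr3:142559794-142560093, plus strand: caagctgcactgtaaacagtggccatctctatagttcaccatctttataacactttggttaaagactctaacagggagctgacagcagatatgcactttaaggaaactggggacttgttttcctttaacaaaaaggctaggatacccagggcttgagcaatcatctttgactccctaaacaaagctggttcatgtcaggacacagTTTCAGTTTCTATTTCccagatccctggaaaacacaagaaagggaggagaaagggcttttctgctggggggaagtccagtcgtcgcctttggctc
Psmb8, chr17:34197945-34198244, plus strand: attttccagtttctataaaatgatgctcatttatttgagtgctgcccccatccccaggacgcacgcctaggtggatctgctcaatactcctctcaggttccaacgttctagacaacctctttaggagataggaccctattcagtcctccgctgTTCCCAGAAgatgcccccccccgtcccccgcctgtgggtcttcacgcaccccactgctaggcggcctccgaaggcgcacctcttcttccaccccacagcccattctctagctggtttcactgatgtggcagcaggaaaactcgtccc
Gbp3 held 2 ISRE cores in one run and Psmb8 1 GAS core. Of the 26 interferon-stimulated genes with a promoter in the RefSeq table, 15 held the ISRE core and 7 the GAS core, whereas 3.44% and 8.30% of all 32841 promoters of this length did. Such genes are known for these sites, so the counts describe the list and not the code.

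Red cell genes had the lowest median of the lists described. Erythroid RNA in a ventricle comes from blood left in the vessels, chiefly young red cells that still hold RNA. All 9 markers tested were lower in coded G3, 8 at an unadjusted p under 0.05 and 8 without overlap, and 3 passed, among them Slc4a1 and Alas2. Slc4a1 encodes band 3, the anion exchanger of the red cell membrane. It stood at 1.92, 8.26 and 9.62 CPM in 40, 50 and 55 and at 0.0738, 0.145, 0.147 and 0 CPM in 67, 81, 82 and 83, so no coded G3 library had more than 2 counts, and fell (log2 difference −6.23 ± 0.67, adjusted p = 0.00726). Alas2, the first enzyme of heme synthesis in red cells, stood at 24.8, 68 and 45.3 CPM against 4.13, 5.45, 9.42 and 6.398 CPM and fell (log2 difference −2.92 ± 0.38, adjusted p = 0.0298).

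The adult beta-globin gene Hbb-bs, chosen after its values were seen, stood at 528, 1159 and 824 CPM against 86.2, 256, 321 and 214 CPM (difference −2.12 ± 0.41, adjusted p = 0.0652). Library 50 was the highest and 67 the lowest, and the groups did not overlap. The erythroid median was −2.59, and −1.82 without library 50. Summed erythroid markers were 743 to 1812 CPM in coded G2 and 136 to 455 CPM in coded G3. Tent5c, a poly(A) polymerase that lengthens the tails of certain messenger RNAs, fell with a small spread, from 9.12, 17.6 and 16.8 CPM to 1.62, 1.31, 1.62 and 1.81 CPM, a difference of −3.19 ± 0.30 (adjusted p = 0.004102). Tent5c passed in 19 of the 22 alternative fits, Slc4a1 in 17 and Alas2 in 16.

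The Alas2 promoter is shown for its match to AGATAA, a form of the site of the GATA factors that drive red cell genes. It is the RefSeq sequence of build GRCm38.p6, 5′ to 3′, with 250 bases before the start site and the match, on the other strand, in capitals.
Alas2, chrX:150547167-150547466, plus strand: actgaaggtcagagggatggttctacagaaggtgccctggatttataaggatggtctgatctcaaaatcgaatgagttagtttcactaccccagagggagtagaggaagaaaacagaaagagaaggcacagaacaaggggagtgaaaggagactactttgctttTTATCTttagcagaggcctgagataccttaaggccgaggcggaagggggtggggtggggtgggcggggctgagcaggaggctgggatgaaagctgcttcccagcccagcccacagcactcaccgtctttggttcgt
Of 6 erythroid genes with a promoter in the table, 2 held AGATAA, against 11.2% of all promoters. Of 6 class II genes with a promoter there, 3 held it too. These counts are small and describe the lists and not the code.

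Neutrophil genes were lower beside the red cell genes. The list of granulocyte and mast cell markers split in its direction, with 4 higher and 4 lower of 8 tested, all at an unadjusted p under 0.05 and none called. The 4 lower ones are neutrophil genes and did not overlap. Csf3r, the receptor of the neutrophil growth factor G-CSF, stood at 8.303, 5.03 and 9.62 CPM against 2.88, 2.91, 1.91 and 2.26 CPM (difference −1.63 ± 0.30, adjusted p = 0.0525). The calprotectin subunits were named after their values were seen: S100a8 stood at 51.4, 33.3 and 88.02 CPM against 24.9, 2.62, 8.68 and 3.39 CPM and S100a9 at 48.5, 39.8 and 86.7 CPM against 30.2, 4.72, 8.09 and 6.17 CPM. Library 67 lay between coded G2 and the other coded G3 libraries in both. The 4 higher ones were mast cell genes at low levels, among them the tryptase Tpsb2 at 0.274, 0.2695 and 0.388 CPM against 0.664, 1.74, 1.69 and 0.602 CPM. Markers near 0 in coded G2, as Tpsb2 was, passed the filter on low counts only through coded G3, so the count of 4 supports no rise. The part of residual blood in any other result was not tested.

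**Figure D3:**
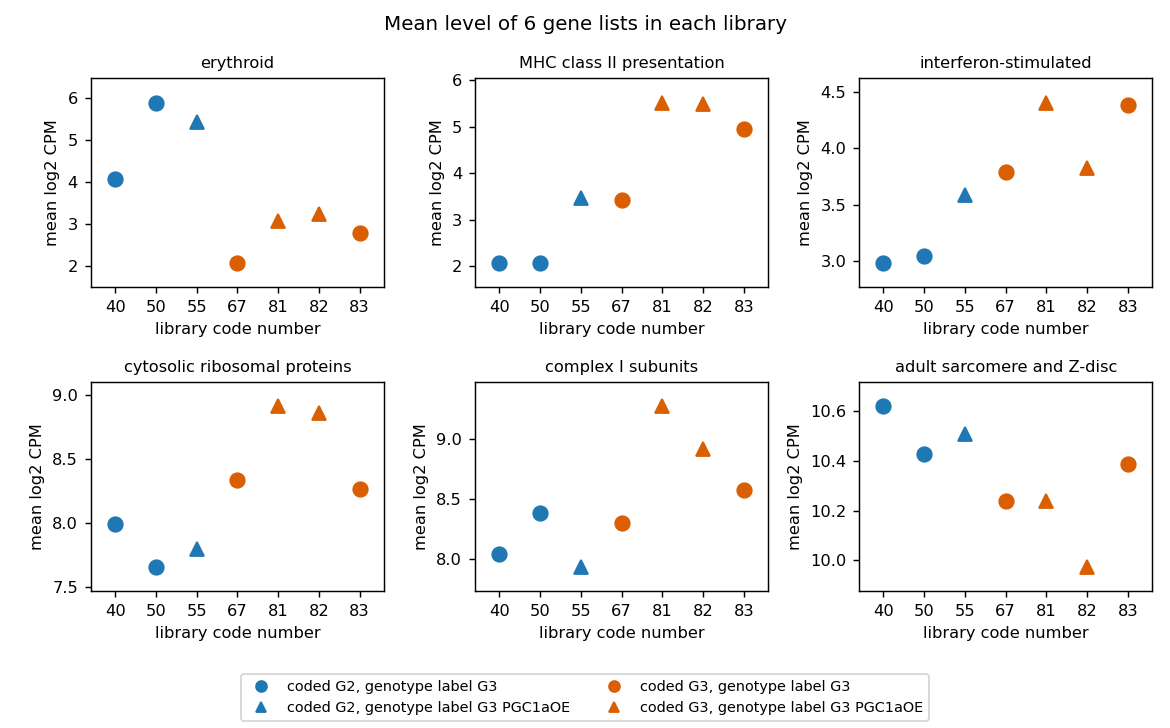
Mean log2 CPM of the tested members of 6 lists in each library (horizontal axis, library code number), with the code as colour and the genotype label as symbol. The erythroid means are 4.06, 5.88 and 5.42 in coded G2 and 2.07 to 3.22 in coded G3, and the ribosomal protein means are 7.65 to 7.99 and 8.26 to 8.91.

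Heart muscle genes differed unevenly. Xirp2 encodes an actin-binding protein of the intercalated disc and Z-disc that load and angiotensin induce. It stood at 923, 441 and 882 CPM in 40, 50 and 55 and at 150.4, 208, 116 and 157 CPM in 67, 81, 82 and 83, and fell (log2 difference −2.27 ± 0.31, adjusted p = 0.0298). Within coded G2 it was lowest in library 50, as Myh7 was, while in coded G3 library 67 had high Myh7 and low Xirp2. Nexn, which encodes the Z-disc protein nexilin, was nearly level in coded G2 at 772, 749 and 772 CPM and stood at 379.5, 216, 282 and 328 CPM in coded G3, a log2 difference of −1.32 ± 0.22 (adjusted p = 0.0499).

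Of 23 adult sarcomere and Z-disc genes, 16 were lower, 9 at an unadjusted p under 0.05 and 8 without overlap, while 2 were higher at that level. The median was −0.33. Myom1, which crosslinks myosin at the M-band, stood at 1710, 1413 and 1530 CPM against 641, 750.3, 412 and 685 CPM (adjusted p = 0.0652). Mybpc3, cardiac myosin-binding protein C, stood at 4564, 3256 and 4418 CPM against 2170, 2136, 1564 and 2363 CPM (adjusted p = 0.103). Ryr2, the channel that releases calcium for contraction and a ventricular marker, stood at 1353, 1662 and 1117 CPM against 1157, 365, 509 and 955 CPM, with overlap (adjusted p = 0.131). Over all 11 ventricular cardiomyocyte markers 3 were lower and 1 higher at an unadjusted p under 0.05, with a median of −0.19.

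Stress and fetal genes as a list did not move one way. Of 22, 13 were lower, 6 at an unadjusted p under 0.05 against 1 higher, and the median of −0.35 became 0.04 without library 55 and −0.02 without 40, so its sign turned without library 55. Beside Xirp2, Rcan1, a feedback inhibitor and target of calcineurin, stood at 99.3, 72.7 and 83.4 CPM against 51.2, 39.8, 49.9 and 42.5 CPM (adjusted p = 0.0824), and Flnc, the muscle filamin, at 441, 303 and 342 CPM against 222, 236, 146 and 241 CPM (adjusted p = 0.139). Nppa, the atrial natriuretic peptide gene that marks a stressed ventricle, overlapped fully, at 2401, 70.5 and 3917 CPM against 2474, 447, 1245 and 599.9 CPM. Nppa is also on the list of atrial markers given above, which varied widely between libraries. The part of atrial tissue in its values was not tested.

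Other genes that fell were of several kinds. Eif5b, an initiation factor that joins the ribosomal subunits, stood at 211, 140 and 157 CPM in 40, 50 and 55 and at 49.5, 39.5, 40.4 and 49.8 CPM in 67, 81, 82 and 83, a log2 difference of −1.89 ± 0.20 (adjusted p = 0.00726), and passed in 18 of the 22 alternative fits. Snhg11, a long noncoding RNA that hosts small nucleolar RNAs, went from 11.9, 10.6 and 15.1 CPM to 1.18, 2.33, 1.69 and 2.71 CPM (log2 difference −2.68 ± 0.30). Sox4, a transcription factor of progenitor cells, went from 52.4, 31.6 and 47.3 CPM to 20.6, 8.43, 8.46 and 10.01 CPM (log2 difference −1.88 ± 0.32). Its highest coded G3 value was in library 67.

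Further named genes that fell had log2 differences of −2.41 ± 0.34 for Klhdc7a, a kelch-domain protein, −1.71 ± 0.26 for the prolactin receptor Prlr, −1.66 ± 0.28 for the kinesin heavy chain Kif5a, −1.46 ± 0.20 for the metalloprotease Adam19 and −1.45 ± 0.24 for the secreted protein Lgi2. Their groups did not overlap, which the rule required, and the levels were mostly low: Kif5a stood at 4.93, 4.31 and 9.38 CPM against 1.26, 2.62, 2.502 and 2.03 CPM, and Adam19 at 36.2, 56.1 and 41.5 CPM against 17.1, 13.3, 13.4 and 19.4 CPM.

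Further genes that fell lay outside the rule for fold or level and were chosen after their values were seen. They included Clock and Hyou1 (below), Trim72, a membrane repair protein of striated muscle (−1.15), Nmrk2, the muscle kinase that makes NAD from nicotinamide riboside (−1.08), and the Wnt pathway genes Sfrp1, a secreted inhibitor (−1.43), and Lgr4, the receptor of R-spondins (−1.12). RNA and trafficking factors were also among them: Upf2 of nonsense-mediated decay (−1.18), Zc3h13 of the RNA methyltransferase complex (−1.22), Actr2 of the actin-branching Arp2/3 complex (−1.12) and the Golgi protein Tmf1 (−1.33). Zbtb38 (−1.37), a DNA-binding repressor, Fnip2 (−1.15), a partner of folliculin, Bod1l (−1.18), Muc6 (−3.51), a mucin, and Prune2 (−1.44) were also among the 30. For Prune2 the difference was −0.996 within genotype label G3 and −2.06 within G3 PGC1aOE, where coded G2 holds a single library. As given above, no gene passed for a code difference that differed between genotype labels.

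Eno1b had the largest fitted rise among the called genes. It is a near-identical copy of Eno1, the glycolytic enolase, so reads may have been divided between them. It had 3, 0 and 2 counts in 40, 50 and 55 and 148, 126, 114 and 110 counts in 67, 81, 82 and 83. That is 0.274, 0 and 0.155 CPM against 10.9, 9.15, 8.39 and 8.28 CPM, with a fitted rise of 5.93 ± 0.50 (adjusted p = 0.00353), and it passed in 19 of the 22 alternative fits. Values split into near 0 and a narrow upper band, with nothing between. Eno1 itself overlapped, at 90.5, 73.4 and 101 CPM against 77.95, 80.1, 72.6 and 74.4 CPM, with an adjusted p of 0.526. Mcc, a gene first named for its loss in colorectal cancer, went from 10.95, 10.1 and 10.7 CPM to 23.6, 22.01, 20.4 and 25.4 CPM, a rise of 1.13 ± 0.18 (adjusted p = 0.0499). Ccdc3, a secreted protein of fat and endothelium, was the remaining called gene that rose (2.19), at a level under the rule's minimum.

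Genes for ribosomes and for the respiratory chain made up the lists with the most members higher. Cytosolic ribosomal proteins build the translating ribosome: 48 of 48 were higher, 39 at an unadjusted p under 0.05 and 42 without overlap, with a median of 0.71, and none was called. Rpl35 stood at 62.7, 56.1 and 53.4 CPM in coded G2 and 112, 217, 196 and 109 CPM in coded G3 (difference 1.30 ± 0.26, adjusted p = 0.0652), and Rpl18 at 255, 224 and 207 CPM against 439, 696, 574 and 439 CPM (difference 1.16 ± 0.24, adjusted p = 0.0728). Libraries 81 and 82, labelled G3 PGC1aOE, were the highest, and 67 and 83 lay between them and coded G2. Many ribosomal protein genes have processed copies in the genome, which makes single values uncertain.

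Complex I passes electrons from NADH into the chain, and 35 of its 36 subunit genes were higher, 16 at an unadjusted p under 0.05 and 11 without overlap, with a median of 0.61. Of 38 subunits of complexes III and IV and ATP synthase, 37 were higher, 19 at that level and 21 without overlap, with a median of 0.64. Cox6a2, the heart and muscle form of a complex IV subunit, stood at 1529, 1791 and 1415 CPM against 2699, 5787, 3073 and 2904 CPM (adjusted p = 0.125), and Ndufb11 of complex I at 309.8, 372 and 277 CPM against 459, 1027, 797 and 570 CPM (adjusted p = 0.1202). Atp5g2, a gene of the ATP synthase ring, had the smallest p of the set, at 97.5, 103 and 82.4 CPM against 172, 169, 182 and 186 CPM (difference 0.94 ± 0.19, adjusted p = 0.0712). The mitochondrial ribosome had 36 of 43 higher, 13 at an unadjusted p under 0.05, and a median of 0.39. Mrps28 was its gene of smallest p, at 23.4, 34.3 and 19.5 CPM against 37.3, 71.8, 56.9 and 50.3 CPM (adjusted p = 0.113).

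These lists hold short genes, and the code difference moved with gene length over all genes. Over 4 equal bins by length the median log2 difference was 0.26 in the shortest genes, 0.01 and −0.10 in the middle bins and −0.22 in the longest, and over 4 bins by transcript GC content it ran from −0.21 in the lowest to 0.25 in the highest. The mean log2 CPM of the longest bin minus that of the shortest was −0.25 to −0.12 in coded G2 libraries and −1.02 to −0.42 in coded G3 libraries, lowest in 81 and 82, without overlap. With each library's trend on length removed, the median was 0.26 for ribosomal proteins, 0.09 for complex I, 0.17 for complexes III, IV and ATP synthase and 0.14 for the mitochondrial ribosome. Without library 55 they were 0.45, 0.20, 0.25 and 0.08. The erythroid, class II and interferon medians with the length trend removed were −3.04, 2.66 and 0.94.

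**Figure D4:**
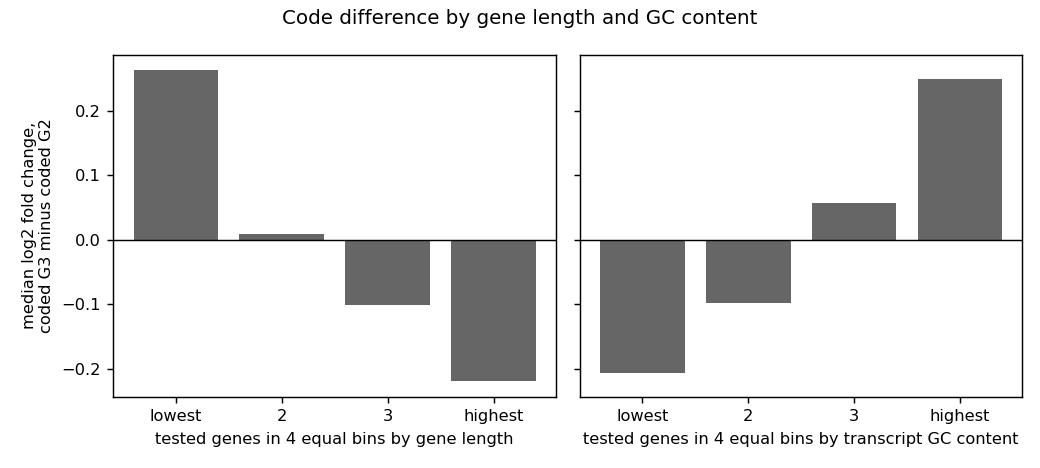
Median log2 difference (coded G3 minus coded G2) of tested genes in 4 equal bins by gene length, left, and by transcript GC content, right. It falls from 0.26 to −0.22 with length and climbs from −0.21 to 0.25 with GC content.

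**Figure D5:**
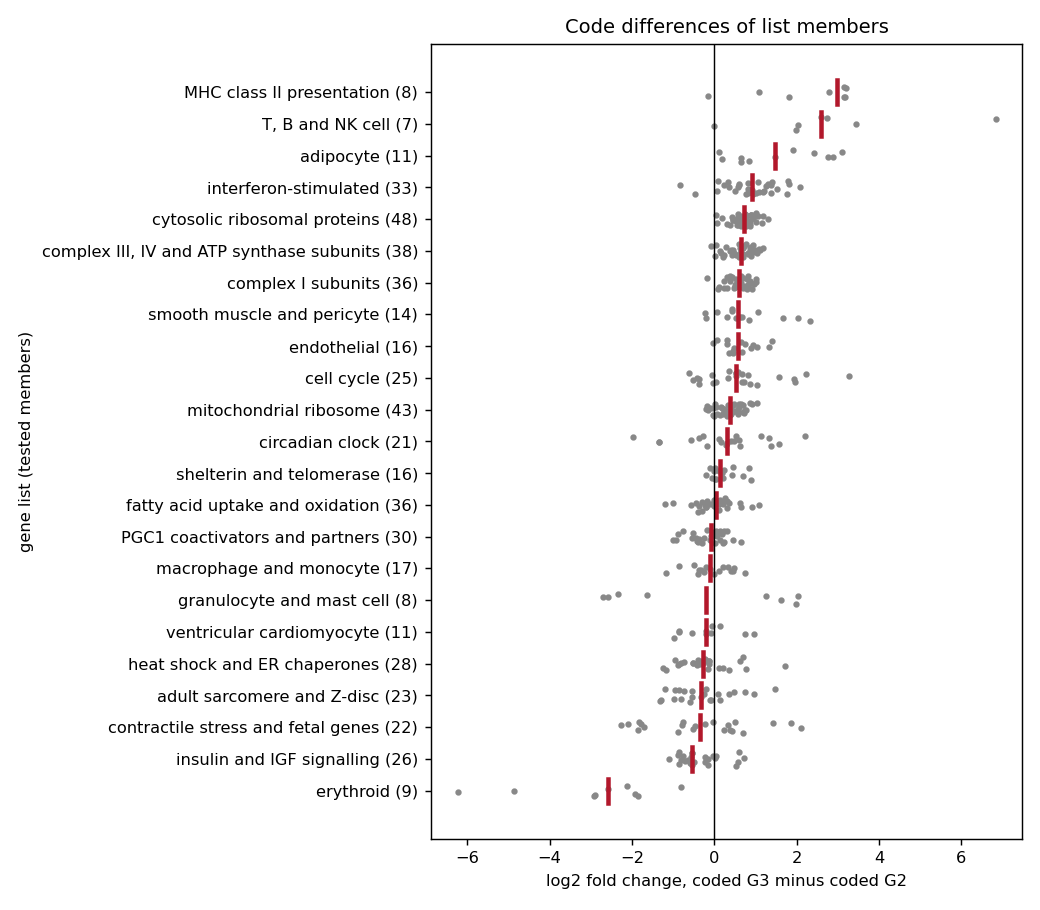
Log2 difference, coded G3 minus coded G2, of each tested member (points, with vertical jitter) of the lists described, and each list's median (bars), ordered by median, with the number of tested members in brackets. The endocardial and lymphatic list and the atrial list are not drawn. The class II list (2.97) and the erythroid list (−2.59) lie at the ends, and macrophage and fatty acid lists lie near 0.

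Fuel metabolism genes did not lean with the respiratory chain. Of 36 genes of fatty acid uptake and oxidation, 21 were higher, but 1 was higher and 2 lower at an unadjusted p under 0.05, and the median was 0.04. Lpl, the lipase that frees fatty acids from circulating lipoproteins, stood at 9773, 6514 and 6524 CPM against 4939, 2851, 2012 and 2994 CPM (difference −1.20 ± 0.30, adjusted p = 0.0972), without overlap. PGC1 coactivators and partners had 6 of 30 lower and 1 higher at that level, with a median of −0.07. Med1, the mediator subunit that PGC1alpha and nuclear receptors bind, stood at 35.5, 53.5 and 40.02 CPM against 19.3, 27.6, 18.9 and 20.6 CPM (adjusted p = 0.08203), and the estrogen-related receptor Esrrg at 25.3, 42.8 and 31.7 CPM against 19.5, 8.86, 15.4 and 25.1 CPM (adjusted p = 0.128). Both were lower, as Ppargc1a was, and neither passed.

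Insulin and IGF signalling leaned lower, with 20 of 26 genes lower, 10 at an unadjusted p under 0.05 and 9 without overlap, against 2 higher, and a median of −0.53. Gsk3b, the kinase that AKT inhibits, stood at 51.1, 61.4 and 52.6 CPM against 34.2, 24.9, 22.2 and 35.98 CPM (difference −0.88 ± 0.19, adjusted p = 0.0728). Igf2r, the receptor that clears IGF2, stood at 219, 198 and 226 CPM against 147, 77.7, 92.5 and 155 CPM (adjusted p = 0.109), and the kinase gene Mtor at 76.1, 55.5 and 68.3 CPM against 49.1, 37.1, 28.8 and 44.6 CPM (adjusted p = 0.122). These genes are long (list median 2792 bp), and the median was −0.34 with the length trend removed.

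Clock genes differed in both directions. The daily clock runs on the activators Clock, Npas2 and Arntl, which switch on Per2, Hlf and Dbp, and collection times are not in the labels. Clock stood at 47.6, 63.9 and 43.4 CPM in 40, 50 and 55 and 29.1, 12.6, 17.95 and 18.4 CPM in 67, 81, 82 and 83, and fell (log2 difference −1.34 ± 0.23, adjusted p = 0.0499). Npas2 was lower too, at 3.56, 4.58 and 5.82 CPM against 2.88, 1.02, 1.398 and 2.11 CPM (adjusted p = 0.113). The clock outputs were higher: Per2 stood at 21.1, 6.83 and 24.97 CPM against 42.4, 71.6, 43.9 and 55.3 CPM (adjusted p = 0.0995), and Hlf at 6.39, 10.9 and 13.03 CPM against 13.9, 23.97, 29.95 and 38.3 CPM (adjusted p = 0.107). In all, 7 of 21 were higher and 4 lower at an unadjusted p under 0.05, with a median of 0.31 that was −0.13 within genotype label G3 PGC1aOE.

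Arntl and Dbp, chosen after their values were seen, showed that library 67 differed from the rest of its group. Arntl stood at 9.67, 21.2 and 6.44 CPM against 8.19, 0.872, 1.84 and 0.452 CPM and Dbp at 16.2, 3.503 and 17.5 CPM against 20.5, 72.5, 56.1 and 87.2 CPM, so 67 lay among the coded G2 libraries for Arntl and just above them for Dbp. Libraries 81, 82 and 83 had low Arntl and high Dbp.

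Of 28 heat shock and endoplasmic reticulum chaperone genes, 21 were lower, 8 at an unadjusted p under 0.05 against 2 higher, and the median was −0.28. Hyou1, a chaperone of the endoplasmic reticulum, stood at 57.6, 48.5 and 37.5 CPM against 19.4, 18.6, 23.2 and 20.9 CPM and fell (log2 difference −1.18 ± 0.20, adjusted p = 0.0499). Atf6, a sensor of unfolded protein, stood at 143, 119.9 and 105 CPM against 92.2, 48.9, 46.1 and 55.6 CPM (adjusted p = 0.0825).

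Genes of the telomere itself were mostly slightly higher. Shelterin is the protein complex that caps telomeres. Of 16 shelterin and telomerase genes tested, 13 were higher, 4 at an unadjusted p under 0.05, with a median of 0.15 and none called. Acd, which encodes the shelterin protein TPP1, stood at 4.93, 6.29 and 5.82 CPM against 10.5, 11.99, 8.98 and 9.79 CPM (difference 0.85 ± 0.22, adjusted p = 0.101), and Ten1, of the complex that fills in the telomere's other strand, at 2.65, 4.13 and 3.18 CPM against 5.17, 6.32, 7.21 and 6.25 CPM (adjusted p = 0.132). The list's median ran from 0.05 without library 81 to 0.22 without 82. It was 0.0796 with the length trend removed and 0.0622 within genotype label G3 PGC1aOE. On log2(FPKM + 0.1) and log2(FPKM + 1) it was 0.00317 and 0.00133, where the median over all genes was −0.15 and −0.11.

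Cell cycle genes were at low levels and leaned higher, with 18 of 25 tested higher, 9 at an unadjusted p under 0.05 against 1 lower, and a median of 0.54. Mcm3, part of the replicative helicase, stood at 3.38, 2.695 and 3.88 CPM against 6.42, 7.77, 6.84 and 6.85 CPM (difference 1.04 ± 0.24, adjusted p = 0.0825). The list's median was 0.34 without library 55, 0.35 with genes under 1 CPM left out, 0.26 on log2(FPKM + 1) and 0.0644 within genotype label G3. The other 8 listed genes were too low to test, and members near 0 in coded G2 passed the filter only through coded G3. Adipocyte markers were higher in 11 of 11, 4 at an unadjusted p under 0.05 and 2 without overlap, with a median of 1.48, but this rested on single libraries. Plin1, a coat protein of lipid droplets, stood at 0.0912, 0.1797 and 0.233 CPM against 0.886, 1.09, 3.83 and 0.376 CPM, highest in 82 (adjusted p = 0.112). Adipocyte markers near 0 in coded G2, as Plin1 was, likewise passed the filter only through coded G3, so the count of 11 supports no rise. The adipocyte median was 0.76 without library 67 and 0.265 within genotype label G3.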

How the data were processed

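RNA of 7 mouse left ventricles was sequenced from TruSeq RNA libraries, a kit without strand marking, per the labels' protocols. The authors deposited read counts per gene as whole numbers, with no normalization, and FPKM values, which equal those counts divided by library total and by a gene length that varied by at most 0.00228 bp across libraries. FPKM added gene lengths only. CASAVA, Bowtie 0.12.2 and the mm9 build are named in the submitters' processing notes; not given in the sources used here are the counting program, its annotation and its treatment of shared reads. Of 22027 gene identifiers 21748 matched a symbol, and the 279 unmatched held 0.0231% to 0.0295% of counts.

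In edgeR 4.0.16 (R 4.3.3) the filterByExpr rule left out 9032 genes, and TMM factors scaled the counts. Each gene was tested with edgeR's robust quasi-likelihood test (2-sided, 4 residual degrees of freedom before pooling) of coded G3 minus coded G2 with the genotype label as covariate, Benjamini-Hochberg adjusted over 12995 genes. Errors are standard errors of the fit. The biological coefficient of variation was 26.9%. Nothing in the labels says that libraries are separate animals, so p-values reflect only how much these samples vary, which may be technical.

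Named genes are those called, averaging 2 or more in log2 CPM, with groups that do not overlap, up to 12 of largest fold in each direction, and from each list up to 4 members of smallest p (3 for marker lists). The comparison, the 34 pathway and 18 marker lists and the alternatives were chosen with earlier results of these data known. Lists were described by counts and medians and not tested. Alternatives were other scalings (RLE, upper quartile), other filters, DESeq2 1.42.0, limma 3.58.1 (voom with quality weights, and log2 FPKM with pseudocounts of 1 and 0.1), other covariates, trends on length removed, and each library left out. Removal of the GC trend and thinning to the lowest total were chosen after seeing the data. GC content came from GENCODE transcripts for 99.8% of tested genes. Promoters are RefSeq's, of build GRCm38.p6, and motifs were searched on both strands. The scripts were tested on simulated data. A few genes are not reported here.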

Additional observations from a re-analysis of the deposited data

Results flagged for a closer look

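In a check for a single library far from the others of its group, applied to the 4 libraries coded G3 over 51 values, 2 list means stood out, and about 1 in 20 such groups does so by chance. In both it was library 83, which is coded G3 with genotype label G3. The mean log2 CPM of fatty acid uptake and oxidation genes was 7.54, 7.60 and 7.53 in libraries 67, 81 and 82 and 8.09 in 83, a gap of 0.873 of the whole range. Library 50, coded G2 with the same genotype label, stood at 8.20 in its own group. The mean of macrophage and monocyte markers was 4.39, 4.29 and 4.36 in 67, 81 and 82 and 3.44 in 83, a gap of 0.892 of the range, and library 50 was the lowest of coded G2 at 3.78.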

How the results depend on the processing

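The 41 genes called (11 higher, 30 lower) became 759 (402 and 357, 40 shared) with DESeq2, 19 (4 and 15, 14 shared) with the GC trend removed, 18 (3 and 15, 18 shared) with RLE, 5 (1 and 4, 5 shared) with a Y-linked covariate, 72 (25 and 47, 34 shared) with the code alone, 13 (4 and 9, 12 shared) with the length trend removed, 272 (116 and 156, 40 shared) with limma voom, 16 (5 and 11, 14 shared) with log2(FPKM + 0.1), 15 (3 and 12, 12 shared) with log2(FPKM + 1), 175 (75 and 100, 41 shared) with no filter, 18 (3 and 15, 18 shared) with upper quartile scaling, 18 (3 and 15, 18 shared) with mitochondrially encoded genes removed and 60 (22 and 38, 40 shared) with libraries thinned to the lowest total. Leaving out 1 library at a time gave 0 to 188 calls (0 to 53 higher, 0 to 135 lower). edgeR called 0 genes within genotype label G3, where 1242 had an unadjusted p under 0.05, and the fit without library 55 rests on this same contrast. With a filter at 1 CPM there were 42 calls. With the GC trend removed, list medians moved to −0.36 (ventricular cardiomyocyte). With the Y-linked covariate, list medians moved to 0.95 (ribosomal proteins) and 1.91 (lymphocytes). With the code alone, list medians moved to −2.24 (granulocyte). With the filter at 1 CPM, list medians moved to 0.35 (cell cycle), 1.99 (lymphocytes) and −2.33 (granulocyte). Within genotype label G3 PGC1aOE, list medians moved to −0.54 (sarcomere), 1.24 (complex I), 1.17 (complexes III to V), 0.82 (mitochondrial ribosome), 1.09 (ribosomal proteins), −0.39 (PGC1 partners), −0.83 (insulin and IGF), 0.0622 (shelterin), 0.54 (interferon), −0.13 (clock), 0.94 (endothelial), 1.59 (lymphocytes), −0.55 (granulocyte) and −1.73 (erythroid). Within genotype label G3, list medians moved to 0.21 (complex I), 0.25 (complexes III to V), 0.0874 (mitochondrial ribosome), 0.46 (ribosomal proteins), 0.0644 (cell cycle), 1.26 (interferon), 0.58 (clock), 0.30 (endothelial), 0.94 (lymphocytes), −1.37 (granulocyte) and 0.265 (adipocyte). With the length trend removed, list medians moved to 0.0867 (complex I), 0.17 (complexes III to V), 0.26 (ribosomal proteins) and 0.0796 (shelterin). On log2(FPKM + 0.1), list medians moved to −0.50 (sarcomere), 0.00317 (shelterin), 0.38 (cell cycle), 1.57 (lymphocytes) and 0.75 (adipocyte). On log2(FPKM + 1), list medians moved to −0.50 (sarcomere), 0.00133 (shelterin), 0.26 (cell cycle), 0.55 (interferon), 2.24 (MHC class II), 0.60 (lymphocytes) and 0.53 (adipocyte). With 1 library left out, medians ran over 0.20 to 0.78 (complex I), 0.25 to 0.80 (complexes III to V), 0.0838 to 0.57 (mitochondrial ribosome), 0.45 to 0.86 (ribosomal proteins), 0.0493 to 0.22 (shelterin), 0.34 to 0.67 (cell cycle), 2.22 to 3.26 (MHC class II), 0.11 to 0.58 (clock), 0.30 to 0.72 (endothelial), 1.90 to 2.91 (lymphocytes), −2.15 to −0.13 (granulocyte), 0.76 to 1.99 (adipocyte) and −2.80 to −1.82 (erythroid). The cause of these moves was not tested. All other list medians, the endocardial and lymphatic list and the atrial list not included, moved by less than their spread between libraries. All 41 called genes kept their sign in each of the 22 alternatives, which adds no support because none of the 41 overlapped by code. No paired analysis was possible because the code groups share no replicate number. Removal of the GC trend and thinning were chosen after seeing the data. Depth limits the genes under 1 CPM most: lymphocyte, adipocyte and cell cycle markers rest on few counts.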
